A study of Saccharomyces cerevisiae with 10 samples.

Results

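The 6 genes SLG1 (YOR008C, also named WSC1), WSC2 (YNL283C), WSC3 (YOL105C), WSC4 (YHL028W), MID2 (YLR332W) and MTL1 (YGR023W) code for sensors of cell surface stress in budding yeast, Saccharomyces cerevisiae. They were taken by their open reading frame identifiers, and all 6 are among the 6212 frames listed on the arrays. Transcripts were measured in the mutant strains ptc1, ptc2, ptc3, ptc4 and ptc5, each against the wild-type (wt) strain, all from log phase cultures in the rich medium YPD at 28 °C. The strain names are those of genes for type 2C protein phosphatases, and the labels give neither the alleles nor the strain background. Mutant and wt RNA were hybridised together on 2 two-colour arrays per mutant, the first with mutant cDNA labelled in Cy5 and the second with the dyes exchanged. The design lists 6 RNA samples, so a mutant's array pair was handled as repeat measurements of 1 extract, and the single wt RNA is common to all 5 comparisons. The array titles number the pair as experiments 1 and 2, so whether the second array used a separate culture is not settled by the labels, and in that case the spread of a pair would also hold that between cultures. Each value is a log ratio, mutant over wt, treated as log2; the base is not given in the sources used here, and with the natural logarithm all folds would be larger than stated.

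Yeast cells monitor their wall with single-pass plasma membrane proteins whose outer part is rich in serine and threonine and heavily O-mannosylated, so that it is thought to reach into the wall like a stiff probe. When the wall or membrane is strained, the inner tails of these sensors recruit the exchange factor Rom2, which activates the small GTPase Rho1 and through it protein kinase Pkc1. Pkc1 then starts the cell wall integrity MAP kinase cascade of Bck1, Mkk1 and Mkk2, and Slt2, whose output includes the transcription factor Rlm1 and wall protein genes. SLG1, WSC2, WSC3 and WSC4 form the WSC family, with a cysteine-rich outer domain. MID2 and MTL1 form a second family that lacks this domain, and WSC2 and WSC3, like MID2 and MTL1, are duplicate pairs.

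The arrays held between 4195 and 4802 values, and 3606 frames had a value on all 10. The second ptc2 array was centred on a log2 ratio of 0.23, while the medians of the other 9 lay between −0.029 and 0.035. The gene each mutant is named for was examined first. PTC1 was at −1.97 and −1.86 in ptc1, PTC3 at −8.79 and −6.91 in ptc3 and PTC5 at −2.43 and −2.34 in ptc5, PTC2 was at −7.86 on the 1 ptc2 array that measured it, and PTC4 lacked a value on both ptc4 arrays, so the ptc4 label could not be checked this way. Haploid mating-type and sporulation marker genes stayed between −0.43 and 0.44 in every mutant. Of the post-diauxic and stationary-phase markers, 3 of 4 tested were higher in ptc1 than in the mean of the other 4 mutants (limma, adjusted p = 0.017 each), where 3.41% of all genes passed in either direction. These were HSP26, SPI1 and SNZ1, with mean log2 ratios of 1.61, 0.40 and 0.93 in ptc1; the remaining marker, HSP30, was below wt in ptc1 at a mean of −0.76 and did not pass (limma, adjusted p = 0.72). The 4 markers had medians of 0.67 in ptc1 and of −1.04, −0.25, −0.64 and −0.41 in ptc2 to ptc5. The part of these markers in the sensor values below was not tested.

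The sensor genes did not move as a group. WSC4 lay below wt on all 10 arrays, MID2 was highest in ptc2, MTL1 was above wt in ptc1 and below it in ptc5, and SLG1 and WSC2 stayed within 0.25 of 0 on the log2 scale in the mean of every mutant. SLG1, WSC2, WSC4 and MID2 had values on all 10 arrays, WSC3 on 5 and MTL1 on 4. The authors left out small and dim spots, and the reason for any single missing value is not given in the sources used here.

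**Figure D1:**
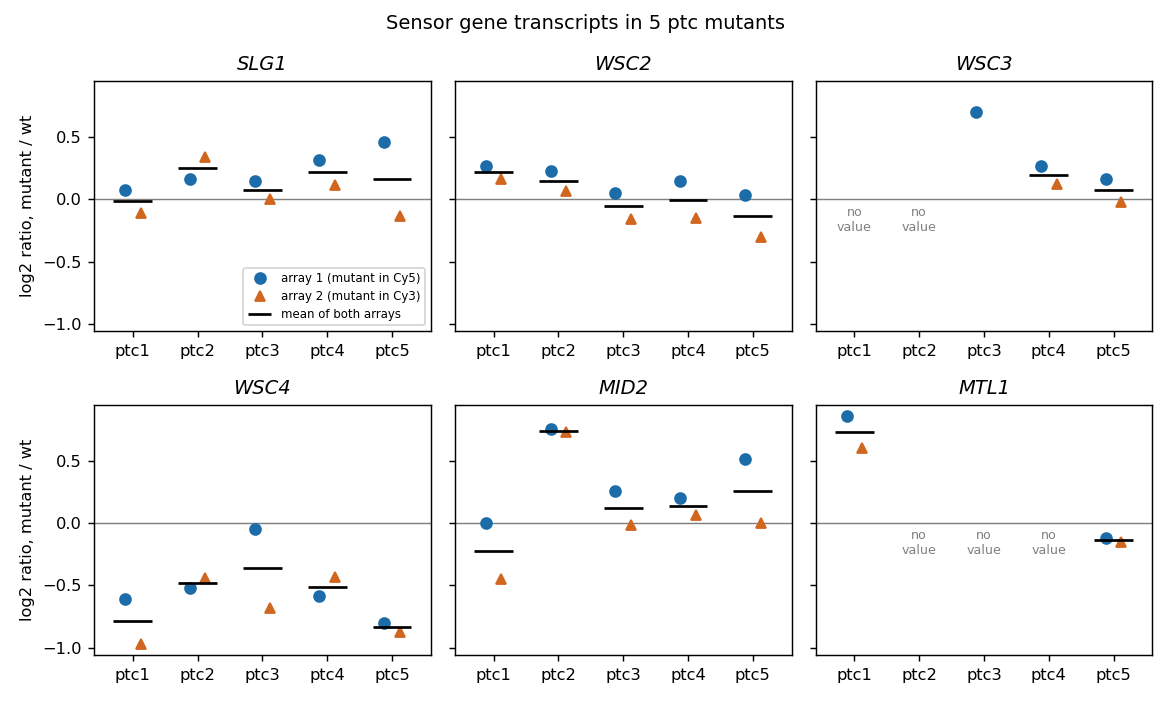
Log2 ratio of mutant over wt (vertical axis) for the 6 sensor genes in mutants ptc1 to ptc5 (horizontal axis). Circles are array number 1, triangles array number 2 and black lines the mean where both arrays had a value; the 10 WSC4 points lie between −0.97 and −0.049, MID2 in ptc2 is at 0.76 and 0.73, and MTL1 in ptc1 is at 0.86 and 0.60.

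The first question was how each sensor transcript stood in each mutant relative to wt. Read as 1 extract per strain, this has no replicate test, and the SD beside a mean covers the 2 arrays of a mutant (n = 2, taken as technical). A gene was counted as past the size rule when its mean was at least 1.5-fold from wt and both arrays lay on that side.

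SLG1 codes for Wsc1, the sensor that contributes most to signalling under heat and wall stress. Its log2 ratios were 0.078 and −0.11 in ptc1, 0.16 and 0.34 in ptc2, 0.15 and 0.0070 in ptc3, 0.32 and 0.12 in ptc4, and 0.46 and −0.13 in ptc5. The arrays of ptc1 and of ptc5 fell on both sides of 0, and no mutant reached the size rule. The means lay between −0.014 in ptc1 and 0.25 in ptc2, a span of 0.26. In ptc5 the SD of the 2 arrays was 0.42, larger than that span.

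WSC2 codes for a sensor that acts alongside Wsc1 in the recovery from heat. Its log2 ratios were 0.27 and 0.17 in ptc1, 0.23 and 0.064 in ptc2, 0.051 and −0.15 in ptc3, 0.14 and −0.15 in ptc4, and 0.034 and −0.30 in ptc5. Both arrays were above wt in ptc1 and ptc2, and the arrays disagreed in sign in the other 3 mutants. The means were 0.22 ± 0.074 in ptc1, 0.15 ± 0.12 in ptc2, −0.051 ± 0.14 in ptc3, −0.00050 ± 0.21 in ptc4 and, lowest of all, −0.13 ± 0.24 in ptc5. None reached the size rule.

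WSC3, the duplicate of WSC2, had no value in ptc1 or ptc2. It was at 0.70 on the first ptc3 array, with no value on the second, at 0.27 and 0.12 in ptc4, and at 0.17 and −0.024 in ptc5. The single ptc3 value was the highest, a 1.63-fold ratio that no second array checks, and where both arrays measured WSC3 the means were 0.20 ± 0.11 in ptc4 and 0.072 ± 0.14 in ptc5. Its level in ptc1 and ptc2 cannot be stated.

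WSC4, the least studied of the WSC genes, had log2 ratios of −0.61 and −0.97 in ptc1, −0.52 and −0.44 in ptc2, −0.049 and −0.68 in ptc3, −0.59 and −0.44 in ptc4, and −0.80 and −0.87 in ptc5. It was below wt on all 10 arrays, as were 1.19% of the genes with all 10 values, 43 of 3606, and the first ptc3 array stands apart from its partner. The 10 arrays share 1 wt RNA, so they are not 10 independent comparisons. The means were −0.79 ± 0.25 in ptc1, −0.48 ± 0.052 in ptc2, −0.36 ± 0.45 in ptc3, −0.51 ± 0.11 in ptc4, and −0.84 ± 0.053 for ptc5, which is 1.73-fold, 1.40-fold, 1.29-fold, 1.43-fold and 1.78-fold below wt. WSC4 passed the size rule in ptc1 and ptc5. With each array centred on its own median it was at −0.61 in ptc2 and passed there as well.

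In ptc1 only 3 of 4612 genes had a mean lower than that of WSC4. In ptc5 46 of 4245 genes did, in ptc4 63 of 4152, in ptc2 85 of 4086 and in ptc3 121 of 4380. WSC4 was also the lowest measured sensor gene in each of the 5 mutants. On all 10 arrays its log2 ratio was below those of SLG1, WSC2 and MID2: WSC4 minus SLG1 ran from −1.26 to −0.20, WSC4 minus WSC2 from −1.13 to −0.10 and WSC4 minus MID2 from −1.31 to −0.31. Its neighbours on chromosome VIII, OCA5 and RIM101, were below 0 on 3 and 5 of 10 arrays, with array values between −0.095 and 0.34 and between −0.58 and 0.34; these neighbours were looked at after the WSC4 values were seen.

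MID2 codes for the main sensor of its family, needed for survival of mating pheromone and active under many wall stresses. Its log2 ratios were −0.0010 and −0.45 in ptc1, 0.76 and 0.73 in ptc2, 0.26 and −0.014 in ptc3, 0.20 and 0.069 in ptc4, and 0.52 and 0.0040 in ptc5. The 2 ptc2 arrays were the highest of the 10, and the second ptc1 array was the lowest. The mean in ptc2 was 0.74 ± 0.020, a 1.67-fold ratio that passed the size rule, with 91 of 4086 genes higher. Centred on each array's median, which was raised on the second ptc2 array, the 2 values were 0.73 and 0.50. They lay further apart than as deposited, so the SD of 0.020 depends on that raised median. The centred mean was 0.62 and still passed. In ptc1 the mean was −0.23 ± 0.32, and in ptc3, ptc4 and ptc5 it was 0.12 ± 0.20, 0.14 ± 0.096 and 0.26 ± 0.36, none past the size rule.

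MTL1, the duplicate of MID2, whose product acts under oxidative stress and glucose starvation, was at 0.86 and 0.60 in ptc1 and at −0.12 and −0.15 in ptc5. It had no value in ptc2, ptc3 or ptc4. The ptc1 mean was 0.73 ± 0.18, a 1.66-fold ratio past the size rule with 42 of 4612 genes higher, and the ptc5 mean was −0.13 ± 0.021. The 4 arrays did not overlap between the 2 mutants, which held for 45.4% of the 4080 genes with both arrays in each, and the means were 0.86 apart, with 66 of those genes having a larger ptc1 minus ptc5 difference; this difference was not tested, since each mutant was taken as 1 extract and the gene lacked values in 3 mutants. Values on both arrays of ptc1 and of ptc5 and on none of ptc2, ptc3 and ptc4 were seen for 5 frames of 6212. In ptc1 the duplicates thus lay apart, with MTL1 above wt on both arrays and MID2 at −0.0010 and −0.45.

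By the size rule, 2 of the 5 sensor genes measured on both ptc1 arrays were counted, MTL1 above and WSC4 below wt, where 1.8% of all genes measured there were past the rule in either direction. In ptc2 it was 1 of 4, MID2, against 6.63% of all genes. In ptc5 it was 1 of 6, WSC4, against 3.42%. In ptc3 and ptc4 it was 0 of 4 and 0 of 5, against 1.05% and 2% of all genes. The measured sensor genes had a median of −0.014 in ptc1 (all genes −0.028), 0.20 in ptc2 (all genes 0.12), 0.014 in ptc3 (all genes 0.0030), 0.14 in ptc4 (all genes 0.0050) and −0.031 in ptc5 (all genes 0.025). The distance between the lowest and the highest sensor gene was 1.52 in ptc1, from WSC4 to MTL1, and 1.22 in ptc2, from WSC4 to MID2. It was 0.49 in ptc3 and 1.095 in ptc5, both from WSC4 to MID2, and 0.73 in ptc4, from WSC4 to SLG1.

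The first array of a mutant gave the higher ratio in 21 of the 24 cases where a sensor gene had both arrays. MID2 and WSC2 had it in 5 of 5 mutants, SLG1 in 4, WSC4 in 3, and WSC3 and MTL1 in 2 of 2. The mean difference was 0.28 for MID2, 0.22 for WSC2, 0.19 for SLG1 and 0.17 for WSC4. Over all genes the first array was higher for between 50.9% and 56.3% in ptc1, ptc3, ptc4 and ptc5, and for 27.1% in ptc2. Since array number and dye orientation coincide, the dye and the order of the arrays cannot be told apart, and a single array of a sensor gene carries this difference.

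The second question was whether the mutants shared a difference from wt. Here limma was fitted to the 5 per-mutant means against 0 over the 3606 genes with all 10 values. WSC4 fell by 0.60 on the log2 scale, 1.51-fold, with an SE of 0.079, a 95% interval from −0.77 to −0.42 and an adjusted p = 0.033 (limma, Benjamini-Hochberg, n = 5 mutants, lower in 5 of 5). It was the only one of 4 sensor genes tested that passed, and by p it stood at rank 3 of 3606. Over all genes 0.194% passed, which was 7 genes. The others, named here after their values were seen, were MTD1, ADE1, GCV3, ADE17 and MRPS8 on the lower side and TOD6 on the higher side.

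SLG1 had a mean of 0.14, with a 95% interval from 0.0042 to 0.27 and an adjusted p = 0.20 (limma). MID2 had a mean of 0.21, with an interval from −0.049 to 0.46 and an adjusted p = 0.30 (limma). WSC2 had a mean of 0.036, with an interval from −0.11 to 0.19 and an adjusted p = 0.77 (limma). These 3 genes did not pass. SLG1 had an unadjusted p = 0.045 (limma), but 23.6% of all genes were under 0.05 unadjusted in this comparison, and SLG1 stood at rank 806 of 3606. The intervals leave room for shifts of up to 0.27, 0.46 and 0.19.

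The WSC4 estimate lay between −0.68 and −0.51 over 12 alternative fits, and its adjusted p (limma) lay between 0.0011 and 0.27, passing in 8. The lowest of these, also counted as a pass, came with every array entered as a sample, where the spread is partly technical. WSC4 did not pass without ptc2, ptc4 or ptc5 (limma, adjusted p = 0.21, 0.27 and 0.21). Nor did it pass when genes missing some arrays were also tested (limma, adjusted p = 0.054). In each of these fits 0 of all genes tested passed, and the WSC4 estimate lay between −0.63 and −0.54. In the 8 fits where WSC4 passed, between 5 and 706 genes did. The test measures the spread between mutants and leaves out that of wt, so a low level in all mutants and a high level in the 1 wt extract cannot be told apart; nor, in RNA from whole cultures, can fewer cells with the transcript and less transcript per cell.

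**Figure D2:**
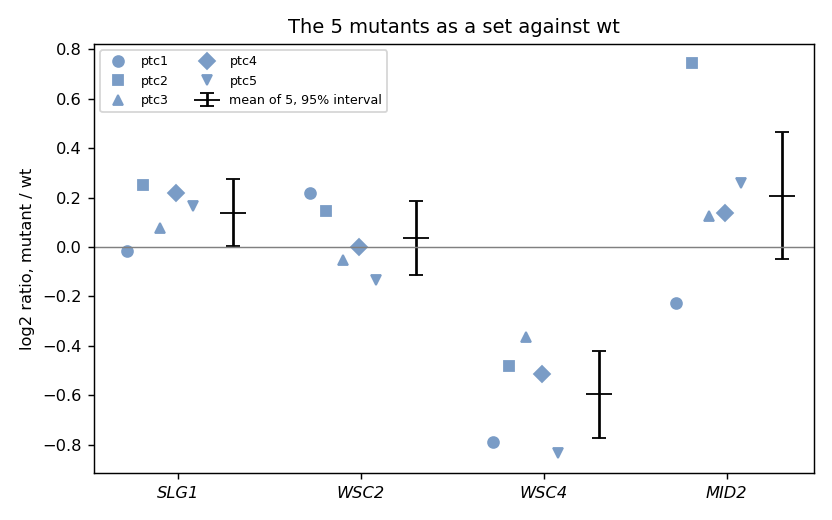
Mean log2 ratio of mutant over wt (vertical axis) for the 4 sensor genes measured on all 10 arrays; each symbol is 1 mutant, and the black bar is the mean of the 5 with its 95% interval from limma. The 5 WSC4 points lie between −0.84 and −0.36, apart from those of SLG1 and WSC2, and the MID2 points spread from −0.23 in ptc1 to 0.74 in ptc2.

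The third question was whether a mutant differed from the mean of the other 4, a comparison in which the wt RNA drops out. No sensor gene passed in any mutant (limma, 3 residual degrees of freedom): 0 of 4 tested in each, where 3.41% of all genes passed in ptc1, 0% in ptc2 and ptc4, and 0.0277% in ptc3 and ptc5. At an unadjusted p under 0.05 there was 1 sensor gene in ptc1 and 1 in ptc2, MID2 in both; 20.5% and 11.5% of all genes were under that value in ptc1 and ptc2.

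MID2 was 0.67 higher in ptc2 than in the other 4, with an SE of 0.19, a 95% interval from 0.22 to 1.11 and an adjusted p = 0.36 (limma). In ptc1 it was 0.54 lower, with an estimate of −0.54, an SE of 0.21, an interval from −1.02 to −0.066 and an adjusted p = 0.19 (limma). With every array entered as a sample and its number as a replicate block, where the spread is technical, the adjusted p (limma) was 0.023 in ptc2 and 0.015 in ptc1. Over all alternatives it ran from 0.023 to 0.999 in ptc2 and from 0.015 to 0.40 in ptc1, with the sign kept in 12 of 12 for both. In the other mutants MID2 differed by −0.10 in ptc3, −0.088 in ptc4 and 0.065 in ptc5.

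WSC4 differed by −0.30 in ptc5, −0.24 in ptc1, 0.11 in ptc4, 0.14 in ptc2 and 0.29 in ptc3, each with a 95% interval that included 0. These intervals reached up to 0.72 in ptc3 and down to −0.72 in ptc5, so they leave room for differences of that size. WSC2 was 0.23 higher in ptc1, with an interval from −0.089 to 0.55, and 0.21 lower in ptc5, with an estimate of −0.21 and an interval from −0.59 to 0.16. SLG1 differed by −0.19 in ptc1, with an interval from −0.49 to 0.10, and by between −0.076 and 0.14 in the other mutants.

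**Figure D3:**
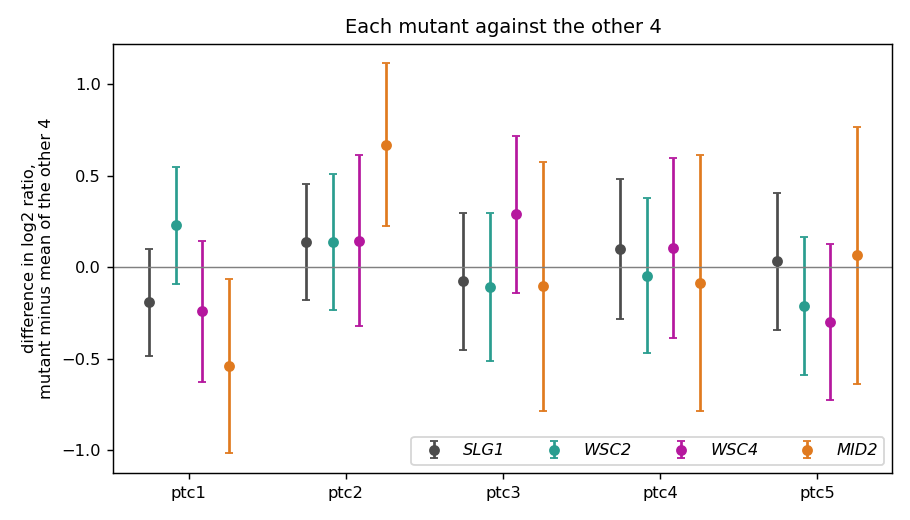
Difference in log2 ratio between 1 mutant and the mean of the other 4 (vertical axis) for SLG1, WSC2, WSC4 and MID2 in each mutant (horizontal axis). Points are limma estimates and bars their unadjusted 95% intervals; only the MID2 bars in ptc1, from −1.02 to −0.066, and in ptc2, from 0.22 to 1.11, lie off 0.

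By level relative to wt, the mutants were ordered for WSC4 as ptc5, ptc1, ptc4, ptc2 and ptc3 from lowest to highest, and neighbours in this order were between 0.032 and 0.28 apart. For MID2 the order was ptc1, ptc3, ptc4, ptc5 and ptc2, and the means of ptc3 and ptc4 were 0.013 apart, less than the SD of either pair of arrays. MID2 was the only sensor gene with all 10 values whose means spanned at least 0.5 on the log2 scale. The 3 genes closest to it over the 10 arrays were ILV5, of branched-chain amino acid synthesis, MDH2, a cytosolic malate dehydrogenase, and RPL3, a ribosomal protein gene. Their root mean square differences from MID2 were 0.067, 0.092 and 0.12 on the log2 scale, where the median over 3605 genes was 0.41. ILV5, for example, had means of −0.30 and 0.71 in ptc1 and ptc2 and of 0.10, 0.17 and 0.31 in ptc3, ptc4 and ptc5. The arrays share the wt RNA and the dye order, which enter this likeness.

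The sensor genes were then set beside the genes downstream of them. Of the Rho1 and Pkc1 module, 9 of 13 listed genes had both ptc1 arrays, with a median log2 ratio of 0.0025. BAG7, a GTPase-activating protein for Rho1, was at 1.19 and 0.81 in ptc1 and had no mean in the other mutants, and PKH2, a kinase upstream of Pkc1, was at 0.22 and 0.23. RHO1 itself had a mean of 0.175 and ROM2 one of 0.14 in ptc1, and 0 of 8 tested genes of the module passed in any mutant against the other 4 (limma), where 3.41% of all genes passed in ptc1; 2 of its 40 tests had an unadjusted p under 0.05, and over all genes and mutants 7.37% of tests did.

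In ptc1 3.41% of all genes passed against the other 4. Of the Slt2 cascade and its factors, 1 of 8 tested genes passed there, on the higher side. This was the MAP kinase gene SLT2, at 1.10 and 1.31 in ptc1, with a difference of 1.14 and an adjusted p = 0.0017 (limma). PTP2, a phosphatase acting on Slt2 and Hog1, was at 0.76 and 0.91 in ptc1. In ptc2 to ptc5 0 of 8 passed, where at most 0.0277% of all genes did in each. Of the list's 40 tests over the 5 mutants 4 had an unadjusted p under 0.05 (limma), 2 in ptc1 and 2 in ptc2 to ptc5. Over all genes 20.5% of tests in ptc1 and 4.07% in ptc2 to ptc5 were under that value. The list medians were 0.086 in ptc1 and between −0.068 and 0.051 in ptc2 to ptc5.

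Cell wall output genes were higher in ptc1: 5 of 6 tested passed against the other 4 mutants, where 3.41% of all genes did, and the list had a median log2 ratio of 1.11 over 11 measured members, all above 0, beside −0.028 for all genes. The wall protein genes PST1 and SED1 and the protease gene YPS3 had ptc1 means of 1.11, 1.41 and 1.92, and the difference from the other 4 was 1.16, 1.56 and 2.06 (limma, adjusted p = 0.0017, 0.00042 and 0.0017). PRM5, a membrane protein gene, KDX1, a kinase-like gene, and CRH1, a chitin transglycosylase gene, had ptc1 means of 1.34, 2.76 and 1.25 and too few values elsewhere for the test. A member without both arrays in a mutant drops out, so the list medians cover different members, between 8 and 10 of them in ptc2 to ptc5. KDX1 entered in ptc1 alone. The part of these missing values in the difference between the medians was not tested. In ptc2 to ptc5 the list medians lay between −0.11 and 0.054, and 0 of 6 passed, with 0 at an unadjusted p under 0.05 (limma). Over all genes 4.07% of tests in these mutants were under that value. In ptc5 YPS3 was at −0.61, the 1 of 8 measured members past the size rule, where 3.42% of all genes were. Among the sensor genes MTL1 alone was past the size rule on the higher side in ptc1, and WSC4 was on the opposite side to the output genes. That side was not particular to ptc1, since WSC4 was below wt in every mutant. In ptc1 WSC4 differed from the other 4 by −0.24 (limma, adjusted p = 0.47).

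**Figure D4:**
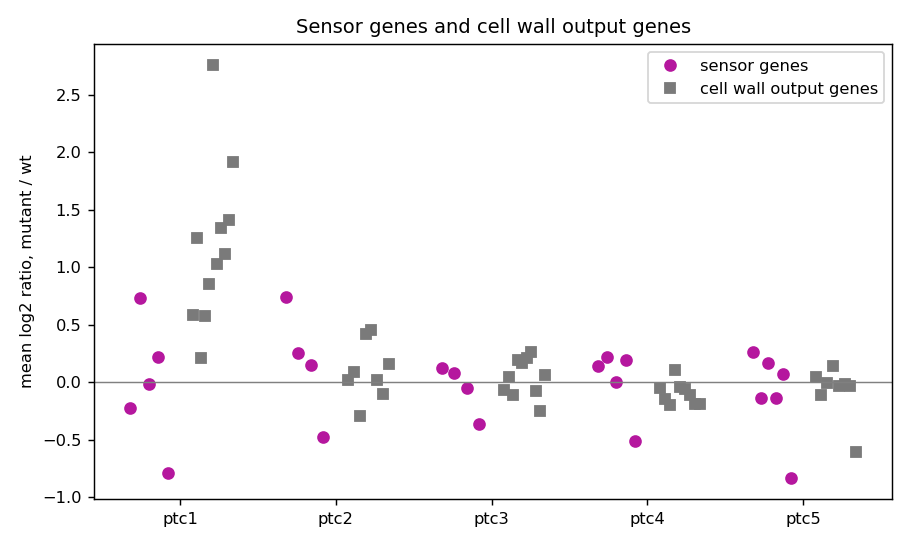
Mean log2 ratio of mutant over wt (vertical axis) for the measured sensor genes (circles) and cell wall output genes (squares) in each mutant (horizontal axis); each point is 1 gene with both arrays. In ptc1 the 11 output genes lie between 0.21 and 2.76 while the 5 sensor genes lie between −0.79 and 0.73. In ptc2 to ptc5 the output medians lie between −0.11 and 0.054, and the genes measured differ between mutants.

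Other proteins that sit with the sensors in the membrane or modify them were compared in the same way. Of other plasma membrane sensors 0 of 5 tested passed in any mutant against the other 4 (limma). Over all genes 3.41% passed in ptc1 and at most 0.0277% in each of ptc2 to ptc5, so a count of 0 says little about a short list. Of the 25 tests, 5 in each mutant, 2 had an unadjusted p under 0.05 (limma), each in ptc1. Over all genes 20.5% of tests in ptc1 were under that value. RIM21, a sensor of external pH, and MSB2, an osmosensor mucin, had the largest ptc1 means, 0.51 ± 0.054 and 0.48 ± 0.32. Of the enzymes that add mannose to proteins 0 of 8 passed (limma). Of their 40 tests 5 had an unadjusted p under 0.05 (limma), all in ptc2 to ptc5, where 4.07% of tests over all genes did. By the size rule 2 of 9 measured members were higher in ptc2, PMT6 among them, where 6.63% of all genes passed in either direction. The list median was 0.37 in ptc2, beside 0.12 for all genes there, and −0.081 in ptc1. The protein O-mannosyltransferase gene PMT6 was at 0.40 in ptc1 and 0.76 in ptc2, and MNN1, a mannosyltransferase gene, was at −0.15 in ptc1.

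Of the endocytic adaptors, some of which take Wsc1 back into the cell, 0 of 9 passed in any mutant (limma). Of their 45 tests 3 had an unadjusted p under 0.05 (limma), all in ptc2 to ptc5, where 4.07% of tests over all genes did. ABP1 and RVS167 had ptc1 means of 0.26 and −0.20. In ptc1, where 3.41% of all genes passed, 1 of 5 tested eisosome and membrane compartment genes rose. This was PUN1, a membrane protein gene, at 0.50 and 0.48 in ptc1, with a difference of 0.61 from the other 4 and an adjusted p = 0.034 (limma). NCE102, of the same compartment, was at −0.30 ± 0.34 in ptc1. In the comparison of the 5 mutants as a set with wt, 0 of the 49 genes tested in these 7 lists passed (limma). Over all genes 0.194% passed, so 0 of 49 says little about the lists. Of the 49 genes 11 had an unadjusted p under 0.05 (limma), a share near the 23.6% of all genes. WSC4 was the only gene among the sensors and the lists that passed there.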

How the data were processed

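The authors deposited 1 log2-type ratio per frame and array (mutant over wt), for 5 mutants with 2 dye-swapped arrays each. Small spots, under 120 µm, and dim spots, under 150 units, were removed by the authors, per the labels; how the ratios were corrected and normalised, and the base of the logarithm, is not given in the sources used here. Their direction follows from PTC1, PTC3 and PTC5, which were negative in their own mutants in both dye orientations.

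Ratios were used as deposited and averaged per mutant. Differences were tested with limma 3.58.1 (R 4.3.3) over the 3606 frames with a value on all arrays, Benjamini-Hochberg adjusted over all of them, at a threshold of 0.05. The 2 arrays of a mutant, numbered as experiments in the titles, were read as dye swaps of 1 RNA sample from the design text. No label states separate cultures beyond the strain, so the p-values cover only the spread between these samples. The main tests used 1 mean per mutant, so the number of mutants limits their precision. The set test left 4 residual degrees of freedom, and the test against the other 4 left 3. Gene names are those of RefSeq, assembly R64, in which 5639 identifiers matched a locus tag; the array's build is not named, so coordinates are left out.

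Same-numbered arrays deviated together: for all 10 pairs of mutants the array differences correlated across genes (r between 0.16 and 0.66), so the numbers were treated as pairs. The members, lists and tests were chosen with earlier results of these data known. Named genes are the sensor genes, the 5 PTC genes, the 3 nearest in pattern to a sensor gene with a span of at least 0.5, 2 genes per list by size in ptc1 and 6 output genes in listed order; ROM2, RHO1, the neighbours of WSC4, markers and the other genes that passed as a set were added. Alternatives covered centring, missing spots, the size rule, moderation, arrays as samples with or without a block, and leaving out array numbers, mutants or, chosen after seeing the data, the second ptc2 array.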

Additional observations from a re-analysis of the deposited data

Results flagged for a closer look

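MTL1 lay above wt on both ptc1 arrays and below it on both ptc5 arrays, and the mean log2 ratio in ptc1 minus that in ptc5 was 0.86. MID2 lay below wt on both ptc1 arrays, although at −0.0010 on the first, and above it on both arrays of ptc2, ptc4 and ptc5. The mean in ptc1 minus that in ptc2, ptc4 and ptc5 was −0.97, −0.36 and −0.49. These differences between 2 mutants were noticed because the arrays of each lay on opposite sides of wt, and they were not tested. Such opposite sides were found for 21.4%, 15.3% and 17.8% of all genes measured on both arrays of ptc1 and of ptc2, ptc4 or ptc5, in that order.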

How the results depend on the processing

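Of 97 alternative values for 11 counts of sensor genes, 82 stayed within 1.5 times the reported count. Most of these were counts of 0 that stayed at 0, which says little about stability. Under the stricter rule (at least 2-fold in the mean and at least 1.5-fold on both arrays) the counts against wt in ptc1, ptc2 and ptc5 were all 0. With each array centred the ptc2 count was 2. With a value on 1 of 2 arrays enough the ptc3 count was 1, from WSC3. On single arrays it was 1 on either, from WSC3 at 0.70 on the first and from WSC4 at −0.68 on the second. The ptc4 count on single arrays ran from 0 to 1. In the set comparison (limma) the count of sensor genes was 0 with genes measured on at least 1 array per mutant, 0 without ptc2, without ptc4 or without ptc5, and 2 without ptc1, where MID2 also passed at a mean of 0.32 (limma, adjusted p = 0.043). Where the sensor count was 0 in that comparison, 0 of all genes passed. Against the other 4 mutants, the replicate block gave 1 sensor gene in ptc1 and 1 in ptc2, MID2 in both, and the block changed no other call. The cause of these changes was not tested. None of 72 single means against wt changed a called sign. Those from 1 array could not do so, nor move by more than the SD of the 2 arrays, because of how the rule and the SD are built. Only centring could, and after it 4 means, all in ptc2, moved by more than that SD. Of 240 alternative tests of a sensor gene against the other 4 mutants, 238 stayed on their side of the threshold. Few genes of any kind passed in ptc2 to ptc5 in any fit, so this says little about the stability of the sensor values. Over all genes, calls in the set comparison ran from 0 to 706, the last without ptc1, against the reported 7, and in ptc1 against the other 4 from 6, without array number 1, to 395, with the replicate block, against 123. With that block the calls were 53, 21, 2 and 21 in ptc2 to ptc5, against 0, 1, 0 and 1. The signal behind the ratios was not used here, so the brightness of the sensor spots is unknown.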
